A study of Mus musculus with 2 samples.

Results

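Prefix transcript models are built from spliced reads that follow a longer model of the gene from its early exons and then stop matching it. Every intron they contain is an intron of that longer model, in the same order, and at least 1 later intron is missing. They were chosen here by the class the annotation program TALON gave them (incomplete splice match, subtype Prefix) in both libraries, by an identical chain of introns on the same chromosome and strand, and by at least 2 reads in each library. This selected 244 models in 199 genes, out of 2805 prefix models in replicate 1 and 2869 in replicate 2, and out of 88716 and 85696 models of any class. The class and the read minimum chose the members and are not findings.

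The libraries are long-read RNA sequencing of whole adrenal gland, the gland whose cortex makes steroid hormones and whose medulla makes catecholamines, from male B6CASTF1/J mice, an F1 hybrid strain, aged 2 months. Both libraries belong to the same untreated group, so no condition is compared. Replicate 1 held 824225 reads on genes and replicate 2 held 656826. The labels do not settle whether the libraries came from separate animals (the biosample and the library labels number them differently), so the spread between them may be technical. All 5 cortex markers examined (Cyp11a1, Star, Cyp11b1, Cyp21a1, Nr5a1) and all 5 medulla markers (Th, Dbh, Pnmt, Chga, Chgb) were read in both, with at least 275 and 197 reads per gene and library. The 4 fat cell markers (Adipoq, Fabp4, Ucp1, Cidea) summed to 4805 CPM (reads scaled by the library's total) in replicate 1 and to 1714 CPM in replicate 2, and reads of TALON's genomic class, which fit no splice pattern of the gene, made up 4.67% and 3.33%. Fewer cells of a type and less RNA per cell cannot be told apart in such tissue.

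An mRNA normally ends where the nascent RNA is cleaved shortly after a poly(A) signal, most often the hexamer AATAAA or ATTAAA, and a tail of A is added. Many genes carry further poly(A) sites inside introns, where cleavage competes with splicing of that intron and gives an mRNA with a new last exon and a truncated reading frame, and an RNA may also keep its last intron and still use the usual end. Sequencing libraries primed with oligo-dT can in addition start within an RNA at a stretch rich in A. The priming of these libraries was not stated in any source used here.

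Bases at the ends of a few members are given as examples, chosen after their values were seen. In the following lines the RNA strand is printed 5′ to 3′ as in mm10, from annotated exons of GENCODE M21. The 4 sequences that come first are from members that stopped inside an exon they share with the longer transcript, with the 30 bases before the deposited end in lower case and the 30 bases after it in capitals. They lie at chr16:91654670-91654729 (+ strand) for Son, which encodes a splicing cofactor of nuclear speckles, chr12:110694145-110694204 (- strand) for the heat shock protein gene Hsp90aa1, chr2:156292499-156292558 (+ strand) for Phf20, a chromatin reader, and chr2:119710967-119711026 (+ strand) for Rtf1, a transcription elongation factor. All 4 continue in the genome with runs of A, with 16, 13, 16 and 15 A among the 20 bases after the end in the order given. At least 12 A followed 12 of the 42 ends in a last shared exon in replicate 1. The ends of the Hsp90aa1 and Phf20 members are also annotated transcript ends of their genes.
Son 3-exon: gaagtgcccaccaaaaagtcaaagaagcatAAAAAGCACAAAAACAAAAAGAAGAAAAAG
Hsp90aa1 5-exon: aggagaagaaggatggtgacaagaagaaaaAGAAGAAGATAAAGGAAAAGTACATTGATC
Phf20 11-exon: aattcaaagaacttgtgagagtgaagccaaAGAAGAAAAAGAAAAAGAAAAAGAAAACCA
Rtf1 5-exon: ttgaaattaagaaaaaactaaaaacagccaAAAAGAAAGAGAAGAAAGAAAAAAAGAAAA

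The remaining 4 are from members that ran into the next intron and stopped there within an exon annotated for another transcript of the gene. All 4 ends are also annotated transcript ends of their genes. The 50 bases before the end are printed, with the poly(A) signal nearest to the end in capitals, at chr6:134540774-134540823 (- strand) for the Wnt co-receptor gene Lrp6, chr3:87992514-87992563 (- strand) for the proteoglycan gene Bcan, chr17:24915354-24915403 (- strand) for the kinase scaffold gene Mapk8ip3 and chr12:3241361-3241410 (+ strand) for the noncoding gene Rab10os.
Lrp6 2-exon: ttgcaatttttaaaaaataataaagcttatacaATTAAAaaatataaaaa
Bcan 8-exon form A: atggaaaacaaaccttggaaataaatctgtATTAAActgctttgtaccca
Mapk8ip3 5-exon: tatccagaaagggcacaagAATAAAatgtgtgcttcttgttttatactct
Rab10os 5-exon: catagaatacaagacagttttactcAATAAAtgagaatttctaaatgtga

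To place the ends, each member was set beside its parent, the annotated transcript of the gene that begins with the same introns and had the most reads. Of the 244 members, 219 had an annotated parent. For the other 25 no annotated transcript of the gene begins with the same introns. They include Dus1l 14-exon (27 reads in replicate 1, 16 in replicate 2) and Star 4-exon (9 and 13). The ends of these 25 were not placed. The largest group, 91 members in 82 genes, did not stop in the next intron but read through it into or past the following exon of the parent. A further 50 members ended in the next intron inside an exon annotated for another transcript, and 20 ended in the next intron outside any annotated exon. Another 42 had a deposited end within or at the edge of the last exon they share with the parent. For 20 of these 42 it was on the donor, the last base of that exon, in both libraries. The remaining 16 fell into different groups in the libraries. Taken per library, the groups hold nearly equal numbers, with 96 and 96 members past the next acceptor site and 42 and 47 in the last shared exon.

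**Figure D1:**
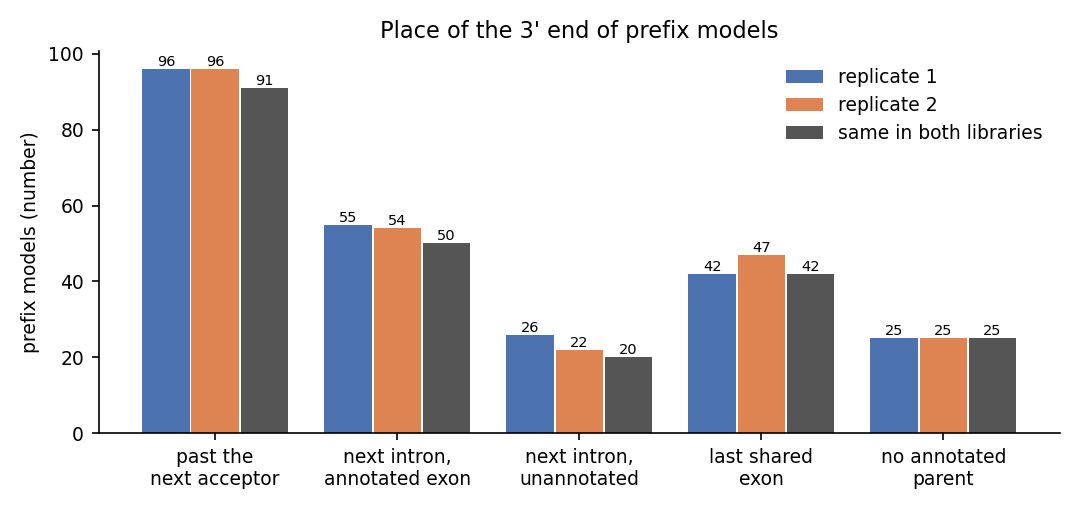
Number of prefix models (y axis) by the place of their 3′ end relative to the annotated parent transcript (x axis), in replicate 1, in replicate 2 and with the same place in both libraries. Ends past the next acceptor are the most frequent place, with 96 models in each library and 91 in both, and ends in unannotated intron the least frequent of the 4 placed groups, with 20 in both.

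The name 3′-shortened therefore fits only some of the models. Of the 219 with a parent, 143 ended more than 50 nt (nucleotides, along the genome) upstream of the parent's 3′ end in both libraries. Another 55 ended within 50 nt of it in both, all of them members that read through the next intron, and 3 ended downstream of it in both. The deposited model was longer than the annotated parent in both libraries for 87 members, 67 of which were past the next acceptor. In that group the median length was 2805 nt in replicate 1 and 2838 nt in replicate 2, beside 2120 nt for the parents. Members that stopped in the last shared exon had a median length of 917.5 and 933 nt beside parents of 4260 nt, and none was longer than its parent.

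TALON reports 1 end per model and library, so the spread of ends over reads cannot be seen. Of the 488 ends (244 members in 2 libraries), 386 (79.1%) sat exactly on an annotated exon edge of the gene, only 6 lay 1 to 300 nt from one, 41 lay over 300 and up to 500 nt away and 55 lay farther. In the suffix class, the models that lack early exons, 90.3% of 4908 ends sat on an edge and 1.61% lay 1 to 300 nt away. Whether reads stopped exactly at those edges cannot be told from the deposited positions, which are given below as they stand. This includes the 20 members of the last shared exon with the end on the donor in both libraries. The split between that group and ends in the next intron thus rests on deposited positions.

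Polyadenylation signal hexamers stood before most ends that could be read past the next acceptor or in annotated exons of the next intron, and before few ends in the last shared exon. The hexamers AATAAA and ATTAAA were searched on the transcribed strand in the 50 bases before each end (the pair cannot overlap in full), and A was counted in the 20 bases after it. Past the next acceptor, 67 of 78 ends in replicate 1 (85.9%) and 69 of 82 in replicate 2 (84.1%) had a signal. In the next intron within an annotated exon, 37 of 48 (77.1%) and 35 of 48 (72.9%) had one. The annotated ends of 192 parents had one in 77.6% and 2412 ends of suffix models in 82.6%. These values are not independent of each other, since 74 of the 91 and 40 of the 50 members were placed on an annotated transcript end in both libraries and only ends in annotated exons could be read. In the last shared exon, 5 of 42 ends (11.9%) and 6 of 42 (14.3%) had a signal, beside 2.58% of windows of equal length at the middle of 134529 annotated transcripts. Of these 42 members, 14 were placed on an annotated transcript end in both libraries. Bases at the other ends are not covered by annotated exons, which left 2 of the 20 ends in unannotated intron to read.

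A-rich sequence directly after the end was most frequent in the last shared exon. Of its 42 ends, 12 in replicate 1 (28.6%) and 14 in replicate 2 (33.3%) were followed by at least 12 A in 20 bases along the spliced parent. At the middle of all annotated transcripts 0.866% of windows were, and at suffix ends 7% of the 800 that could be read. Past the next acceptor it was 1 of 37 ends in replicate 1 and 0 of 33 in replicate 2, which allows a share of up to 9.09%, and in annotated exons of the next intron 1 of 14 and 1 of 13. Ends placed before the donor site of the last shared exon were A-rich in 9 of 20 cases (45%) and ends placed on the donor itself in 3 of 20 (15%). In any 20 bases from 50 before to 20 after the end, a window chosen after the data were seen, 17 of 42 (40.5%) reached 12 A in replicate 1, beside 33.8% of 795 suffix ends, which lie in A-rich 3′ end sequence, and 6.88% of transcript middles. That wider window did not set the group apart: it reached 12 A in 6 of 12 ends (50%) and 7 of 11 (63.6%) in annotated exons of the next intron, and in 9 of 30 (30%) and 9 of 28 (32.1%) past the next acceptor. The part of priming at such stretches in these reads was not tested.

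**Figure D2:**
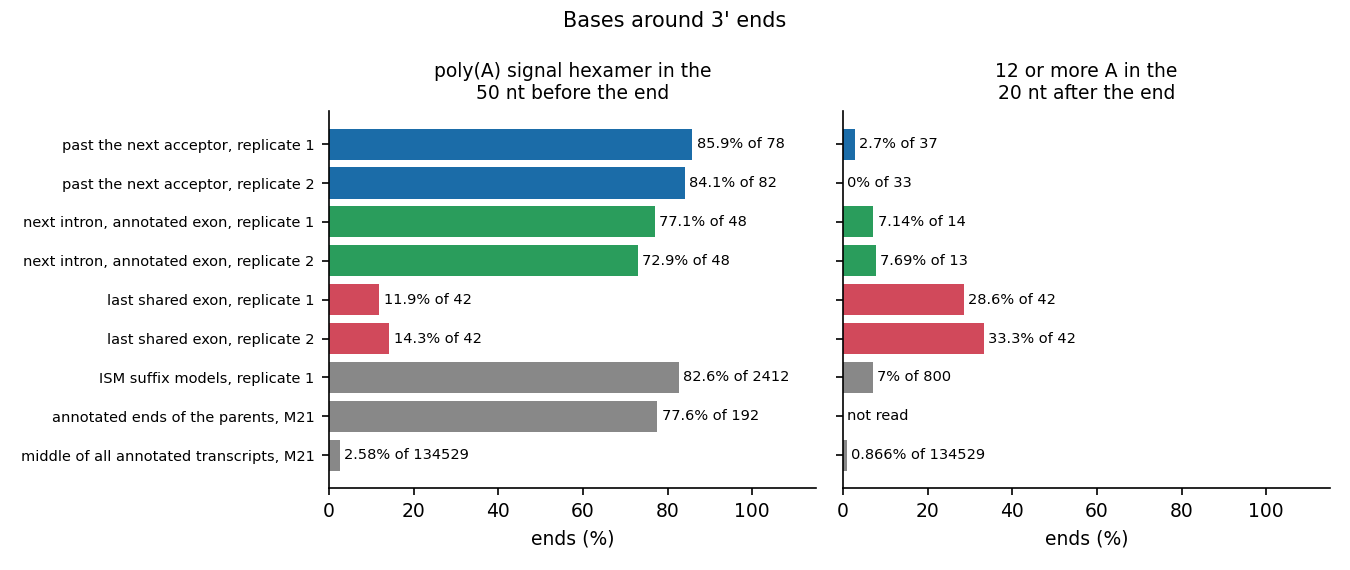
Share of 3′ ends in percent (x axes) with AATAAA or ATTAAA in the 50 bases before the end (left) and with at least 12 A in the 20 bases after it (right), by place of the end and library, with the number of ends that could be read beside each bar. Ends in the last shared exon had a signal in 11.9% and 14.3% of cases and A-rich sequence after the end in 28.6% and 33.3%, while ends past the next acceptor and in annotated exons of the next intron had a signal in 72.9% to 85.9%.

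Members that ended in the last shared exon lacked a median of 6 exons of the parent. A median of 51% of the parent's coding sequence lay before the donor of that exon, which ends placed before the donor do not reach. For 19 of the 39 with a coding parent this share was under 50%. Son 3-exon had 41 reads of 53 on the gene in replicate 1 (77.4%, Wilson 95% interval 64.5 to 86.5%) and 19 of 31 in replicate 2 (61.3%, 43.8 to 76.3%). Its end lay 5881 nt before the donor of its long last exon in both libraries, at the same base, and the intervals overlap. Psmd1 22-exon, of a proteasome cap subunit gene, had 38 of 116 reads (32.8%) and 51 of 125 (40.8%), beside 66 and 63 reads of its 25-exon parent. Its replicate 1 end was on the donor and its replicate 2 end 51 nt before it.

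Sec62 4-exon, of a gene for a subunit of the protein-conducting channel of the endoplasmic reticulum, had 50 of 168 reads (29.8%) and 22 of 123 (17.9%), with the end on the donor in both libraries. Eif5b 5-exon, from a translation initiation factor gene of 24 exons, had 13 of 23 reads (56.5%) and 8 of 22 (36.4%), with 12 A in the 20 bases after the end. The A-rich ends were not limited to abundant models. Mtdh 9-exon (7 and 5 reads) and Smap1 4-exon (3 and 6) had 17 A in the next 20 bases, Eif5 7-exon (9 and 11), Kmt2e 13-exon (4 and 9) and Rtf1 5-exon (2 and 6) had 15, and Srpk1 10-exon (4 and 2), from a kinase gene of SR proteins, had 13. The ends of the Mtdh, Eif5 and Kmt2e members are also annotated transcript ends. Those of Smap1 4-exon and Eif5b 5-exon were on the donor, so their A were counted in the next exon of the spliced parent. Others of the group had no such sequence: Ccnl2 6-exon, of the cyclin L2 gene, with 49 reads of 126 (38.9%) and 31 of 131 (23.7%), had 6 and 8 A after its ends, which lay 1329 nt apart.

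Members that ended in an annotated exon of the next intron held the largest part of their genes. Their median share of the gene's reads, taken as the mean of both libraries, was 16%, beside 11.3% in the last shared exon, 4.14% in unannotated intron, 3.17% past the next acceptor and 5.9% over all 244 members. These genes were also the least read, with a median of 22 reads in replicate 1 and 25 in replicate 2, against 187 and 148 for genes of members past the next acceptor, and a model with 2 reads is a larger share of a little-read gene. The introns they stopped in were long, with a median of 3139 nt beside 1620.5 nt over all introns of the same parents, and the stop came a median of 910.5 nt (replicate 1) and 962.5 nt (replicate 2) past the donor. In 24 of the 50 the member had more reads than the parent in both libraries, against 48 of the 219 members with a parent. Members needed at least 2 reads in each library and parents had no minimum. A parent below that minimum in both libraries thus has fewer reads than its member by the rule. In 40 of the 50, both libraries placed the end on an annotated transcript end.

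Lrp6 2-exon had 12 of 16 reads in replicate 1 (75%) and 7 of 15 in replicate 2 (46.7%), and its 23-exon parent had 1 and 0. It stopped 878 nt into an intron of 21058 nt, with 9.28% of the parent's coding sequence before the donor of that intron. Sik3 14-exon, of a salt-inducible kinase gene, had 13 of 20 reads (65%) and 10 of 19 (52.6%), and stopped 815 nt into the intron. Ccdc9 12-exon form A had 15 of 36 (41.7%) and 19 of 50 (38%), and Mapk8ip3 5-exon had 9 of 29 (31%) and 8 of 30 (26.7%) of a gene whose parent has 42 exons. Ankrd11 7-exon, of a chromatin regulator gene, had 9 of 21 (42.9%) and 6 of 24 (25%). The Wilson intervals of both libraries overlap for each of these 5 members, and at this depth they are wide, from 50.5 to 89.8% and from 24.8 to 69.9% for Lrp6.

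Ends in unannotated intron lay 342 to 3077 nt past the donor, and 15 of the 20 pairs of ends were within 50 nt of each other. Fam120aos 2-exon, a noncoding RNA at chr13:48968287-48969904, was 1 of 3 above 50% of the gene in both libraries, with 15 of 17 reads (88.2%) and 16 of 17 (94.1%), and its annotated 3-exon parent had 0 reads in either library. It stopped 618 and 610 nt past the donor. AC110206.1 2-exon had 7 of 12 reads (58.3%) and 8 of 11 (72.7%). Pcsk5 8-exon, of a proprotein convertase gene, had 8 reads (3.36%) and 10 (5.08%), with ends 3077 and 2068 nt into an intron of 12094 nt.

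Members past the next acceptor were in most cases a parent with an intron left in. The chain broke at the last intron of the parent for 72 of the 91, and 80 crossed 1 intron of the parent while 11 crossed at least 2. The crossed introns had a median length of 406 nt, beside 411 nt for the last introns and 603.5 nt for all introns of the same parents. For 37 of the 91, the intron lay within an exon annotated for another transcript, so its retention is known to M21. A parent's intron of 1 nt in Zswim9-201 is an oddity of the annotation. A median of 91.4% of the parent's coding sequence preceded the donor of the first intron left in, and in 11 of the 90 with a coding parent it was all of it.

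Mbd3 6-exon form A had 37 of 197 reads (18.8%) and 40 of 197 (20.3%), against 77 and 82 for its parent. Mbd3 encodes a subunit of the NuRD chromatin complex, and the model kept an intron of 76 nt behind the complete coding sequence and ended on the parent's last base in both libraries. Srsf2 2-exon, from an SR splicing factor gene, also kept an intron behind the complete coding sequence, of 1059 nt, and had 15 of 224 reads (6.7%, 4.1 to 10.8%) and 33 of 243 (13.6%, 9.84 to 18.5%). Qsox2 12-exon, of a sulfhydryl oxidase gene, had 19 of 32 reads (59.4%) and 13 of 24 (54.2%), above the 8 and 8 reads of the parent with that intron of 1480 nt removed. Mrap 2-exon, from the gene of the accessory protein of the ACTH receptor, had 4 reads (2.14%) and 13 (7.3%). Meg3 3-exon, of an imprinted noncoding RNA, had 31 of 209 reads (14.8%) and 41 of 241 (17%) and differed from these in ending at an annotated end of a shorter transcript, 26402 nt before the end of its 10-exon parent.

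Hnrnpa2b1 and Cyp11b2 had the 3 members that ended past the parent in both libraries. Cyp11b2 8-exon, at chr15:74848912-74856318 on the - strand, had 46 of 1042 reads (4.41%) and 65 of 1345 (4.83%) of the aldosterone synthase gene. It kept the last intron, of 266 nt, and ended 2098 and 2097 nt beyond the annotated end, where no exon of the gene is annotated. Hnrnpa2b1 10-exon (4 and 7 reads) and 9-exon (5 and 4 reads), of a splicing repressor gene, ended 1636 nt beyond their parents at another annotated end of the gene. Cyp11b1 8-exon, of the 11β-hydroxylase gene beside Cyp11b2, had 34 reads (0.546%) and 57 (0.899%) and also lacked the last splice, but its deposited ends were 1507 nt past the parent's end in replicate 1 and 746 nt short of it in replicate 2. Reads of Cyp11b1 and Cyp11b2, which are similar neighbours, can be hard to tell apart, and how they were assigned was not tested.

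Across the members, the share of a gene ranged from 0.0123% for Cyp11a1 8-exon to 91.2% for Fam120aos 2-exon. A total of 82 members held at least 10% in both libraries and 44 held under 1% in both. In 12 members the share was above 50% in both libraries, but only Son 3-exon and Qsox2 12-exon did so where the gene had 20 or more reads in both. Over the 193 members whose gene had 20 or more reads in both libraries, the shares had Spearman's rho 0.918, a description across models that share their libraries, and the median difference was 1.19 percentage points. The depth of the gene, which is the denominator of a share, and the minimum of 2 reads in both libraries both enter this rho. Their part in it was not tested.

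**Figure D3:**
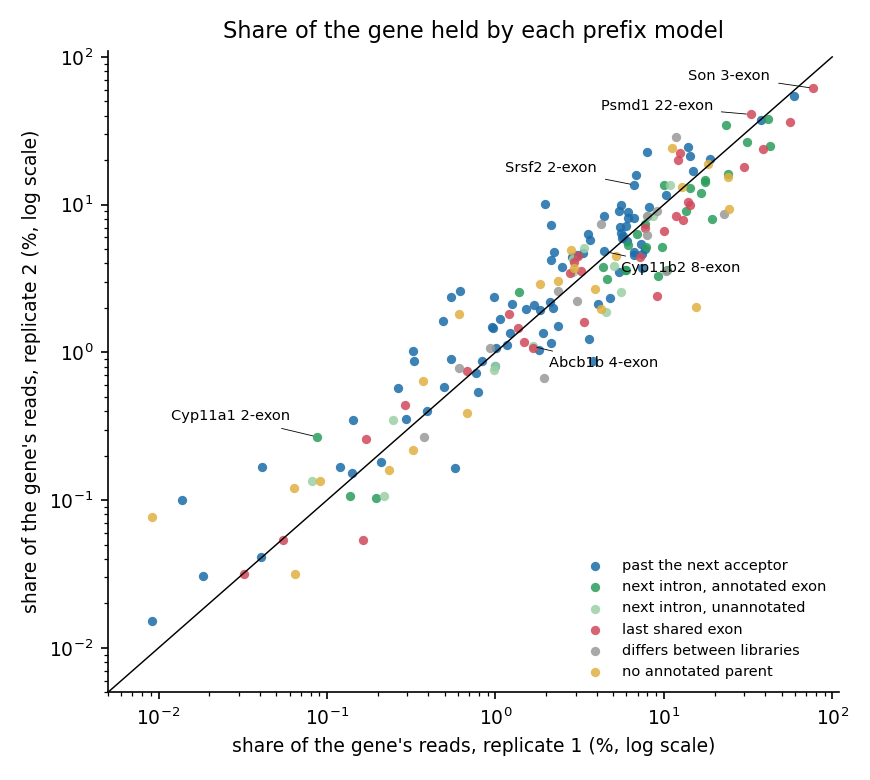
Share of the gene's reads held by each prefix model in replicate 1 (x axis) and replicate 2 (y axis), both in percent on log scales, for genes of 20 or more reads in both, coloured by the place of the 3′ end, with the line of equal shares. The points follow the line from shares under 0.1% to Son 3-exon at 77.4% and 61.3%, and Cyp11a1 2-exon lies above it at 0.0875% and 0.268%.

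Each model's reads against the other reads of its gene were compared between the libraries (Fisher's exact test, two-sided), with Benjamini-Hochberg adjustment over 12454 models of every class whose gene had 20 or more reads in both. This compares the libraries, which form 1 group. A call needed a difference of 10 points or more besides an adjusted p under 0.05, which 0.177% of all models met. Among the 192 members tested, 0 were called by Fisher's exact test, and 14 (7.29%) had an unadjusted p under 0.05, beside 4.9% of all models, 9 of the 14 with the higher share in replicate 2. A member of Rhbdl1 had been given different gene identifiers in the libraries and was not tested, which with the members of little-read genes made 52 untested.

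By the adjusted p alone, which 0.361% of all models met, 1 member passed. Cyp11a1 2-exon had 19 of 21722 reads in replicate 1 (0.0875%) and 35 of 13061 in replicate 2 (0.268%), a rise of 0.181 points with an adjusted p of 0.0205 by Fisher's exact test. Cyp11a1 encodes the enzyme that cleaves the cholesterol side chain and opens steroid synthesis. Reads of the genomic class made up 50.3% of the gene's reads in replicate 1 and 28.3% in replicate 2, and without them the shares were 0.176% and 0.374%, with an unadjusted p of 0.00885 by the same exact test. Cyp11a1 7-exon (9 and 22 reads), 6-exon form A (3 and 13) and 6-exon form B (2 and 10) were also higher in replicate 2 at unadjusted p of 0.000249, 0.000457 and 0.0016 by Fisher's exact test, with adjusted p of 0.0621, 0.105 and 0.216. Without reads of the genomic class, their unadjusted p by Fisher's exact test was 0.00666, 0.00555 and 0.0167. The largest difference among the members tested, 20.2 points in Eif5b 5-exon, was not called. AC149090.1 6-exon, with 11.8% and 28.8% (adjusted p = 0.135), and Ccnl2 6-exon, with 38.9% and 23.7% (adjusted p = 0.593), were not called either by the same exact test.

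As a class, prefix models took 0.642% of the reads in replicate 1 (5293 reads, Wilson 95% interval 0.625 to 0.66%) and 0.8% in replicate 2 (5257 reads, 0.779 to 0.822%), a mean of 0.721% ± 0.112 (SD, n = 2). Replicate 2 was 1.25 times replicate 1, with an adjusted p of 2.8e-29 over 3 classes (Fisher's exact test on reads, two-sided). Suffix models held 5.52% and 5.55% (adjusted p = 0.476), and annotated models 77% and 76.7% (adjusted p = 7.58e-06), by the same exact test. These p-values cover counting error in the libraries only. Most prefix models were single observations, with 79% and 78.7% of them at 1 read. The 244 members held 1824 reads (0.221%) and 1816 reads (0.276%), about the same share of all prefix reads in each library, at 34.5% and 34.5%.

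Abcb1b, which encodes a P-glycoprotein efflux pump of the adrenal cortex, had 10 members, the most of any gene. Together they held 196 of 3662 reads (5.35%) and 181 of 3733 (4.85%), a mean of 5.1% ± 0.356 (SD, n = 2). All shared the start of the 28-exon transcript Abcb1b-201 (3061 and 3111 reads) on chromosome 5 and broke off after 2 to 27 exons. Abcb1b 4-exon, at chr5:8798147-8807178, had 61 and 41 reads and stopped 1008 and 1007 nt into an intron of 4387 nt. Abcb1b 6-exon had 43 and 42 reads and read through an intron of 727 nt to end on an annotated transcript end at chr5:8798147-8813651. Both carry the early exons only, with 7.24% and 13.8% of the parent's coding sequence before the donor of the intron they entered.

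The short forms were the more frequent ones. Abcb1b 2-exon had 34 and 40 reads, with its end 1006 nt into the intron in replicate 1 and on the donor in replicate 2. Abcb1b 5-exon had 25 and 28 reads and ended on the donor in both. Beyond 6 exons, no form exceeded 9 reads in replicate 1 or 13 in replicate 2, both reached by Abcb1b 26-exon, which stopped 540 and 539 nt into the intron. The members ended in all 4 places, with 4 in unannotated intron, 3 in the last shared exon, 1 in an annotated exon of the intron, 1 past the next acceptor and 1 that differed.

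**Figure D4:**
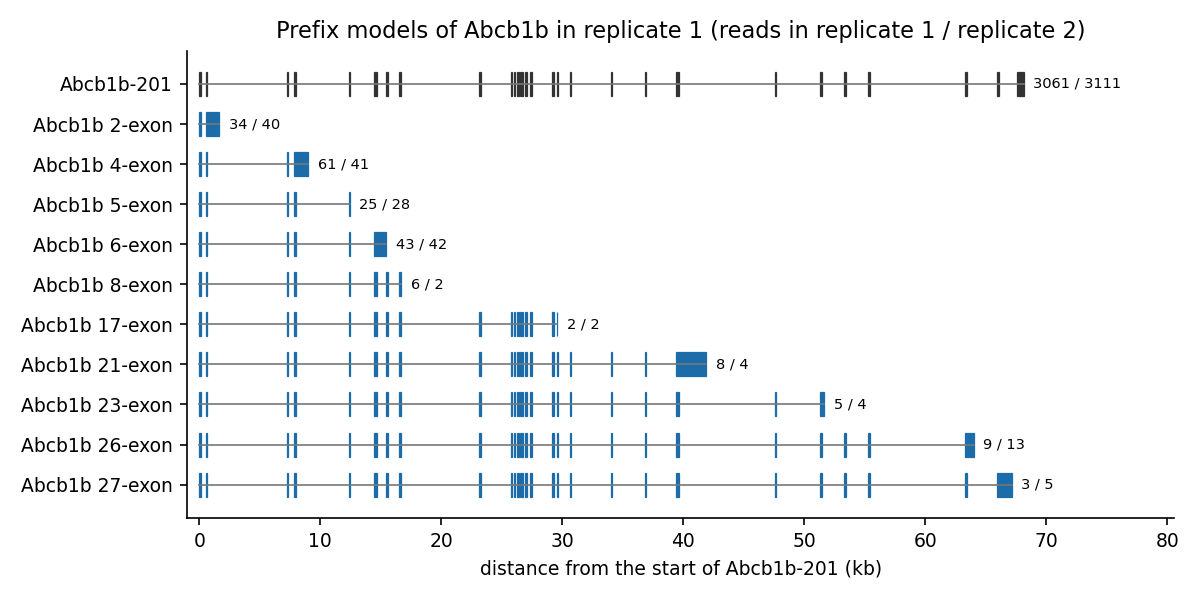
Exons (boxes) and introns (lines) of the 10 prefix models of Abcb1b as deposited for replicate 1, below the annotated transcript Abcb1b-201, by distance from its start in kb (x axis), with reads in replicate 1 and replicate 2 beside each. Forms of 2 to 6 exons had 25 to 61 reads per library and longer forms 2 to 13, and several models end in a last exon that runs into the intron.

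Steroid genes were frequent among the members, and so were deeply read genes in general. Of 30 genes in a list of steroid synthesis and cholesterol delivery, 9 had a member and 19 members in all, against 199 of 13185 annotated genes read in both libraries (1.51%). Among the 54 genes of at least 1000 reads on average, 31.5% had a member, against 4.96% at 200 to 1000 reads, 2.57% at 50 to 200 and 0.253% under 10 reads. The median share of the 19 members was 0.113% of the gene, beside 5.9% over all members. Besides 1 of Cyp11b2, they were 6 of Cyp11a1, 3 of Star, 3 of Cyp11b1, 2 of Srd5a2 and 1 each of Hsd3b1, Scarb1, Fdx1 and Mrap.

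Star, whose product brings cholesterol into mitochondria, had the member with the most reads. Star 6-exon had 60 of 9898 reads (0.606%, 0.471 to 0.779%) and 75 of 9637 (0.778%, 0.621 to 0.974%), with 8080 and 8043 reads on its 7-exon parent. Its deposited end was 540 nt into the last intron in replicate 1 and past that intron in replicate 2, 672 nt before the parent's end. In Cyp11a1, the 7-exon, 6-exon form A and 8-exon members left later introns unspliced and ended on the parent's last base in both libraries. Srd5a2 4-exon, of the steroid 5α-reductase 2 gene, had 11 and 13 reads and ended 2066 nt past the parent in replicate 1 and on its last base in replicate 2. Fdx1 3-exon (3 and 7 reads), of the gene for adrenodoxin, kept a last intron of 4927 nt, the longest crossed by a member.

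Of 36 SR and hnRNP genes 4 had a member (11.1%), beside the 1.51% of all genes, with 6 members, 5 of them past the next acceptor and the other, Hnrnpa2b1 11-exon (8 and 2 reads), of differing place. Of 29 chromaffin genes 2 had one (6.9%), Chgb 4-exon (12 and 8 reads) and Chga 7-exon (4 and 4), from the granin genes. Of 15 fat cell genes 2 had one (13.3%), with 12 and 4 reads for Plin1 8-exon, 10 and 3 for Plin1 7-exon form A, 5 and 2 for form B and 5 and 6 for Cfd 4-exon. These shares of genes were not set against genes of equal depth. Fat cell markers summed higher in replicate 1, as given above. Of 28 genes with textbook truncated or soluble forms, 26 of them read in both libraries, only Fgfr2 had one (2 and 6 reads), and of 24 cholesterol synthesis genes and 30 genes of 3′ end processing and the U1 snRNP none had.

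The same intron chain mostly got the same end in both libraries. The ends were identical in 166 of 244 members (68%), within 10 nt in 196 and within 50 nt in 198 (81.1%), and over 500 nt apart in 36. Suffix models were within 50 nt in 88.1% of 2459 cases, models with a new join of known splice sites in 86.3% of 1920 and models with a new splice site in 85.5% of 847. Prefix models differed more in their anchoring, since 58.6% ended on an annotated 3′ end of the gene in both libraries, against 87.1% of suffix models, which share the ordinary gene end. Among the 101 prefix models without an annotated end in both libraries, 65 agreed within 10 nt. These include ends placed on another annotated exon edge, such as the donor ends of Sec62 4-exon and Eif5b 5-exon. Of all 244 members, 183 were on an exon edge in both libraries, so this agreement is not independent of the annotation. These shares are descriptions of models processed per library and carry no test.

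**Figure D5:**
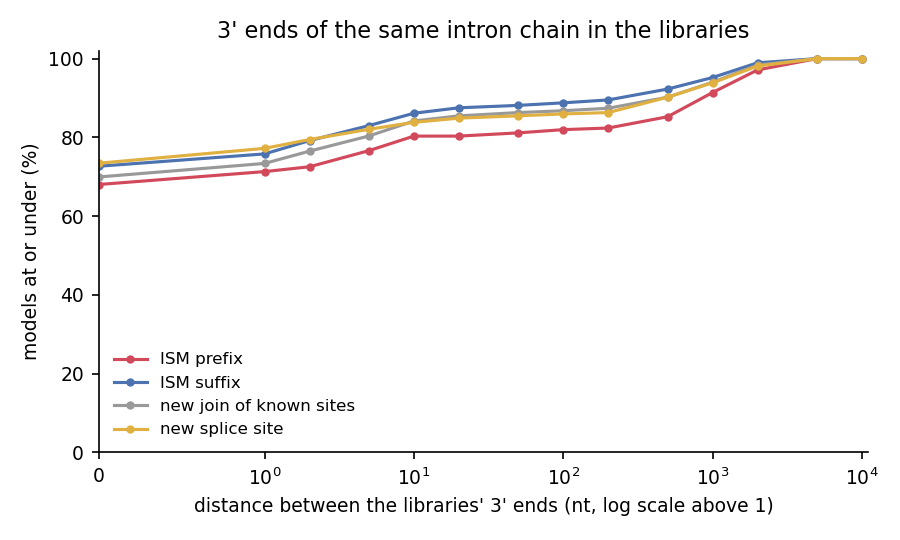
Share of models in percent (y axis) whose deposited 3′ ends in the libraries lay at or under a given distance in nt (x axis, log scale above 1), for prefix, suffix and other new spliced models of 2 or more reads in both. The prefix curve starts at 68% with identical ends and reaches 81.1% at 50 nt, below the suffix curve at 72.7% and 88.1%.

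The read minimum lay within a steep fall of numbers, with 757 chains in the class at 1 read or more in each library, 244 at 2, 144 at 3, 79 at 5 and 12 at 20. Just inside it, among the most-read genes, were Cyp11a1 6-exon form B (2 and 10 reads), Cyp11a1 8-exon (2 and 2) and Cyp11b1 4-exon (2 and 2). Just outside it were a Cyp11a1 4-exon model (5 and 1) and a pair of Cyp11a1 5-exon models (1 and 1, and 1 and 12).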

How the data were processed

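Long-read RNA sequencing libraries of adrenal gland form 1 group of 2 samples, so no group contrast exists and edgeR's quasi-likelihood test could not be fitted. The authors deposited whole-number read counts per transcript model, not normalized, with exon numbers and lengths per model, and exon coordinates on mm10 with GENCODE M21, per the deposited notes. TALON wrote the models, per the source column of the deposited annotation files. The sources used here state no aligner, platform, priming or version.

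Reads on spike-ins were left out of totals (824225 and 656826 reads remained). Matching used chromosome, strand and the chain of introns. The parent is the M21 transcript of the gene that begins with the member's introns and had most reads. Shares are a model's reads over all reads of its gene, with Wilson 95% intervals, which cover counting error only. A count of 0 allows 3 reads (3.64 and 4.57 CPM). Fisher's exact tests on reads compare the libraries and were adjusted by Benjamini-Hochberg; the calling step was tested on simulated reads.

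No genome was used. Bases came from M21 transcript sequences placed by their exon coordinates, where a genome had been planned, so ends outside annotated exons have none. Some end sequences are not reported here. Named members are the 15 of highest mean CPM, the 15 of highest mean share where the gene had 20 or more reads in both, the top 5 by CPM per place of end, the top 3 per list, called members, and 3 on either side of the read minimum. Others, chosen after their values were seen, include those printed as sequences. Members and lists were chosen with earlier results of these data known. Alternatives were other read minimums, leaving out each library, other parents and denominators, a donor tolerance of 10 nt, and other windows and A counts. Leaving out a library changed the choice of members only for their number, and the other values kept the same members. Python 3.11.15, numpy 2.4.6, scipy 1.17.1, pandas 2.3.3 and matplotlib 3.10.9 were used.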

Additional observations from a re-analysis of the deposited data

Results flagged for a closer look

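A model that TALON called a prefix in 1 library was given another class in the other library in 49 cases with at least 2 reads in each, and these reads are not part of the results above. Those with at least 20 reads in each library are given here as signals in data that the comparisons did not use. There are no control samples, and each lies above the 3 reads that a count of 0 allows.

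Suds3 11-exon was a prefix in replicate 1 with 125 reads (67.2% of the gene) and a model with a new splice site in replicate 2 with 136 reads (76.8%), more than any member. Suds3 encodes a subunit of the Sin3 histone deacetylase complex. The others were prefixes in 1 library and new joins of known splice sites in the other, except for 2010007H06Rik 2-exon, with 20 prefix reads in replicate 1 and 20 reads of an antisense model in replicate 2. In replicate 1 the prefixes were Aldoa 9-exon with 81 reads (51 in replicate 2), Agpat3 11-exon with 64 (55) and a Cyp21a1 9-exon model with 47 (64). In replicate 2 they were Srd5a2 4-exon with 93 reads (73 in replicate 1), another Cyp21a1 9-exon model with 61 (36), Dus1l 14-exon with 40 (45) and Pex2 4-exon with 24 (28). The Srd5a2 and Dus1l chains differ from the members of the same name. In these models the class differed although the intron chain was the same and both libraries read it.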

How the results depend on the processing

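The number of members is set by the read minimum: it was 79 with at least 5 reads in each library and 757 with at least 1, and 588 to 611 when 1 library alone was asked for 2 reads. Asking the prefix class of 1 library only, an alternative chosen after seeing the data, gave 293. At 5 reads in each library, 28 members ended past the next acceptor, 16 in an annotated exon of the next intron, 7 in unannotated intron and 13 in the last shared exon, and the members held 0.169% of reads in place of 0.249%. For the same members, still chosen with both libraries, the values of 1 library at a time were also taken. The groups of ends then held 96 to 96, 54 to 55, 22 to 26 and 42 to 47 members in the same order. The share of reads was 0.221% to 0.276%, and the median share of the gene was 5.13% to 5.99%. The groups among models chosen by 1 library alone were not examined. Calls between libraries rose from 0 to 1 with the adjusted p alone, and stayed at 0 in the 144 members whose gene had 50 or more reads in both. A signal window of 30 bases left 2 of 42 ends with a signal in the last shared exon in place of 5. With the ends of replicate 2, signals were found at 69, 35 and 6 ends past the next acceptor, in annotated exons of the intron and in the last shared exon, and A-rich sequence at 14 ends of the last. Other parents and an end tolerance of 10 nt moved no count by over 1.5 times. The donor tolerance of 10 nt could not change the groups in the next intron, whose ends lay at least 18 nt past the donor. Leaving out reads of the genomic class moved the share of 3 of 44 named members by more than the spread between libraries. No paired analysis was possible because the libraries form 1 group. Most members have under 5 reads in 1 library, and differences of a few points in share could not be told from counting error at that depth.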
